A study of Mus musculus with 8 samples.

Results

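The genes described here are the 10 non-imprinted regulators of the first gap phase of the cell cycle (G1) that carry the symbols *Ccnd1*, *Ccnd2*, *Ccnd3*, *Ccne1*, *Ccne2*, *Cdkn1a*, *Cdkn1b*, *Cdkn2a*, *Cdkn2b* and *Cdkn2c*, out of 26263 genes counted in each library. They were chosen by symbol, and all 10 passed the filter on low counts that 16399 genes passed. RNA was sequenced from 2 male hybrid mouse embryonic stem cell (ESC) lines, and from neural precursor cells (NPCs) that each line gave at day 12 of *in vitro* corticogenesis. Line BJE2 (B/J) carries the genotype C57BL/6 x JF1 and line JBE6 (J/B) the genotype JF1 x C57BL/6, and each group of stage and cross held 2 replicate libraries, 8 in all. ESCs grew on gelatin in a medium with LIF, BMP4 and an inhibitor of GSK3-β, while corticogenesis, a protocol meant to lead to dorsal forebrain precursors, ran on Matrigel with B27 without vitamin A and dorsomorphin homolog 1, so stage and culture medium differed together. No gene was targeted in these lines. Each cross was 1 cell line, so the cross and the line cannot be told apart, and replicates of 1 line measure the spread between these samples only, which may be technical.

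In G1, D-type cyclins bind CDK4 and CDK6 and E-type cyclins bind CDK2, and the active kinases phosphorylate the retinoblastoma proteins and thereby release E2F factors that switch on S-phase genes. The inhibitors belong to the CIP/KIP family (*Cdkn1a*, which encodes p21, and *Cdkn1b*, which encodes p27), which acts on CDK2 complexes and can also bind cyclin D complexes, and the INK4 family (*Cdkn2a*, *Cdkn2b* and *Cdkn2c*), which binds CDK4 and CDK6. Mouse ESCs are known for a short G1 with abundant cyclin E, and neural precursors are known to lengthen G1 as neurogenesis proceeds.

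Libraries held 22537138 to 32706015 reads on genes. Levels are read counts scaled to library size as CPM after TMM scaling, whose factors were 0.820 to 0.885 in ESCs and 1.14 to 1.21 in NPCs. With library totals alone, the median change between the stages over all tested genes went from 0.17 to 0.65 on the log2 scale, and scaling to the reference genes *Gapdh*, *Gusb* and *Tbp* raised it to 0.80, with 54.0%, 70.1% and 75.0% of calls higher in NPCs. The summed level of 5 pluripotency markers was 3635 to 6618 CPM in ESCs and 40.3 to 203 CPM in NPCs. The 5 neural precursor markers summed to 19.3 to 55.2 CPM in ESCs and 119 to 479 CPM in NPCs, and 4 of them rose while *Pax6* did not pass the test (adjusted p = 0.0606, edgeR). Markers of other lineages also rose in NPCs, with 5 of 5 fibroblast markers (1.61 to 47.1 CPM in ESCs, 682 to 1685 CPM in NPCs) and 5 of 5 trophoblast markers (2.93 to 14.7 and 332 to 854 CPM) called higher. Of 5 neuron markers 4 rose and *Stmn2* fell, and their sum was 313 to 453 CPM in ESCs and 269 to 1464 CPM in NPCs. All 4 tested endoderm markers rose (0.781 to 3.09 and 12.8 to 49.8 CPM), and of 3 tested endothelial and blood markers 2 rose and *Pecam1* fell (36.3 to 103 and 234 to 815 CPM). Most of that sum in NPCs was *Cdh5*, at 210 to 772 CPM, and *Hba-a1* had 0 counts in all 8 libraries. The share of these cells in any difference below was not tested, and in such bulk samples fewer cells of a type cannot be told apart from less RNA per cell. Within the ESCs, the J/B replicate 1 library stood apart, with 28.2 CPM of *Col1a1* against 0.608 to 3.03 CPM in the other 3 ESC libraries.

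The first comparison asked how these genes differed between ESCs and NPCs. Pooled over both crosses, *Ccnd2*, *Cdkn1b*, *Cdkn2b* and *Cdkn2c* rose in NPCs, *Ccne1*, *Ccnd3* and *Cdkn1a* fell, and *Ccnd1*, *Ccne2* and *Cdkn2a* did not pass the test. This made 7 of 10 genes called at an adjusted p below 0.05 with edgeR's quasi-likelihood test, beside 69.4% of all genes tested, and the share called was thus about that of genes at large. The 4 higher calls compare with 37.5% of all genes called higher and the 3 lower calls with 31.9% called lower. The largest rise was that of *Ccnd2* at 15.6-fold, and the largest fall that of *Ccne1* at 7.50-fold.

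**Figure D1:**
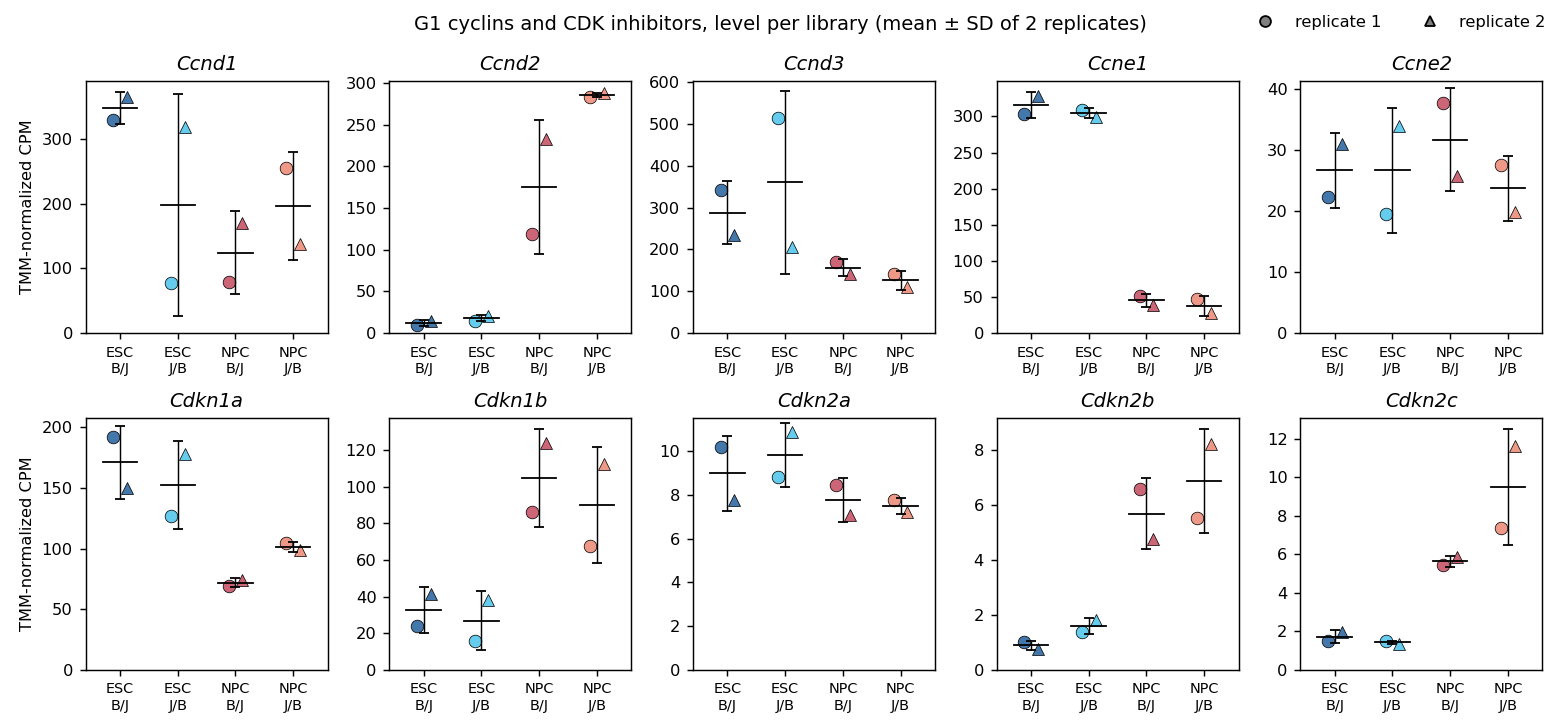
Level of each of the 10 genes (y axis, TMM-normalized CPM, linear from 0) in each library, by stage and cross (x axis); points are replicates, and lines and bars are the mean ± SD of 2 replicates. *Ccnd2* was 9.24 to 20.2 CPM in ESCs and 119 to 287 CPM in NPCs, while *Ccne1* was 299.8 to 328 CPM in ESCs and 27.9 to 51.6 CPM in NPCs.

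*Ccnd1*, the D-type cyclin classically induced by mitogens, lies at chr7:144483668-144493662 on the minus strand (GRCm39). Its level in B/J ESCs was 329.5 and 365 CPM, in J/B ESCs 76.8 and 318 CPM, in B/J NPCs 78.9 and 169.7 CPM, and in J/B NPCs 255 and 137 CPM. One ESC library, J/B replicate 1, thus lay just below the lowest NPC library, while the other 3 ESC libraries lay above all NPC libraries. The log2 fold change was −0.75 ± 0.45 (SE, 4 libraries per stage; adjusted p = 0.173, edgeR). Without J/B ESC replicate 1 it was −1.09 and passed the test (adjusted p = 0.0188, edgeR). In the same library *Mycn*, a transcription factor of the MYC family, stood at 33.5 CPM against 174 to 382 CPM in the other 3 ESC libraries. *Myc*, of the same family, went the other way, at 132 CPM against 52.7 to 69.0 CPM. The part of these levels, and of the collagen value given above, in the *Ccnd1* level was not tested.

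*Ccnd2*, the D-type cyclin known from neural progenitors of the developing cortex, lies at chr6:127102125-127129156 on the minus strand. Its level was 9.24 and 14.2 CPM in B/J ESCs, 14.9 and 20.2 CPM in J/B ESCs, 119 and 232 CPM in B/J NPCs and 284 and 287 CPM in J/B NPCs. The lowest NPC library was above the highest ESC library by a wide margin, and B/J NPC replicate 1, the lowest of the NPC libraries, also had the lowest *Nes* (66.6 CPM against 134 to 249 CPM), a part that was not tested. NPCs differed from ESCs on the log2 scale by 3.96 ± 0.27 (adjusted p = 2.71e-05, edgeR), with 3.91 in B/J and 4.02 in J/B.

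*Ccnd3*, the D-type cyclin with wide tissue expression, lies at chr17:47815767-47910624 on the plus strand. Its level was 341 and 235 CPM in B/J ESCs, 515 and 206 CPM in J/B ESCs, 171 and 142 CPM in B/J NPCs and 142 and 109 CPM in J/B NPCs. All NPC libraries were below all ESC libraries on this scale, but overlapped with them when only library totals were used, and replicate 2 was below replicate 1 in each of the 4 groups. On the log2 scale the change was −1.20 ± 0.29 (adjusted p = 0.00698, edgeR), and −0.56 without a call under scaling to *Gapdh*, *Gusb* and *Tbp* (adjusted p = 0.0768, edgeR).

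The mix of D-type cyclins was then compared as shares within each library, where no scaling between libraries enters. Per kb of the union of annotated exons, *Ccnd2* made up 0.920% to 2.36% of the sum of the 3 levels in ESCs and 26.5% to 43.0% in NPCs. *Ccnd1* made up 64.6% and 73.9% in B/J ESCs, 21.9% and 73.1% in J/B ESCs, and 34.6% to 53.9% in NPCs. *Ccnd3* was the leading D-type cyclin in J/B ESC replicate 1 at 75.9%, against 24.5% to 34.5% in the other 3 ESC libraries and 15.5% to 38.8% in NPCs. It also led in B/J NPC replicate 1, at 38.8%, and with the longest transcript as the length it led in B/J ESC replicate 1 as well (50.4% against 48.7% for *Ccnd1*). The summed level of the 3, which does rest on the TMM scale, was 73.3 to 107 CPM per kb in ESCs and 47.6 to 98.7 CPM per kb in NPCs, so the sums overlapped between stages while the *Ccnd2* shares did not. The log2 ratio of *Ccnd2* to *Ccnd1* counts was −5.16 to −2.36 in ESCs and 0.16 to 1.07 in NPCs. With the longest annotated transcript as the length, the mean *Ccnd2* share was 1.52% in ESCs and 31.4% in NPCs, and *Ccnd3* came to 53.3% in ESCs in place of 39.9%. These shares are a description with no test.

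**Figure D2:**
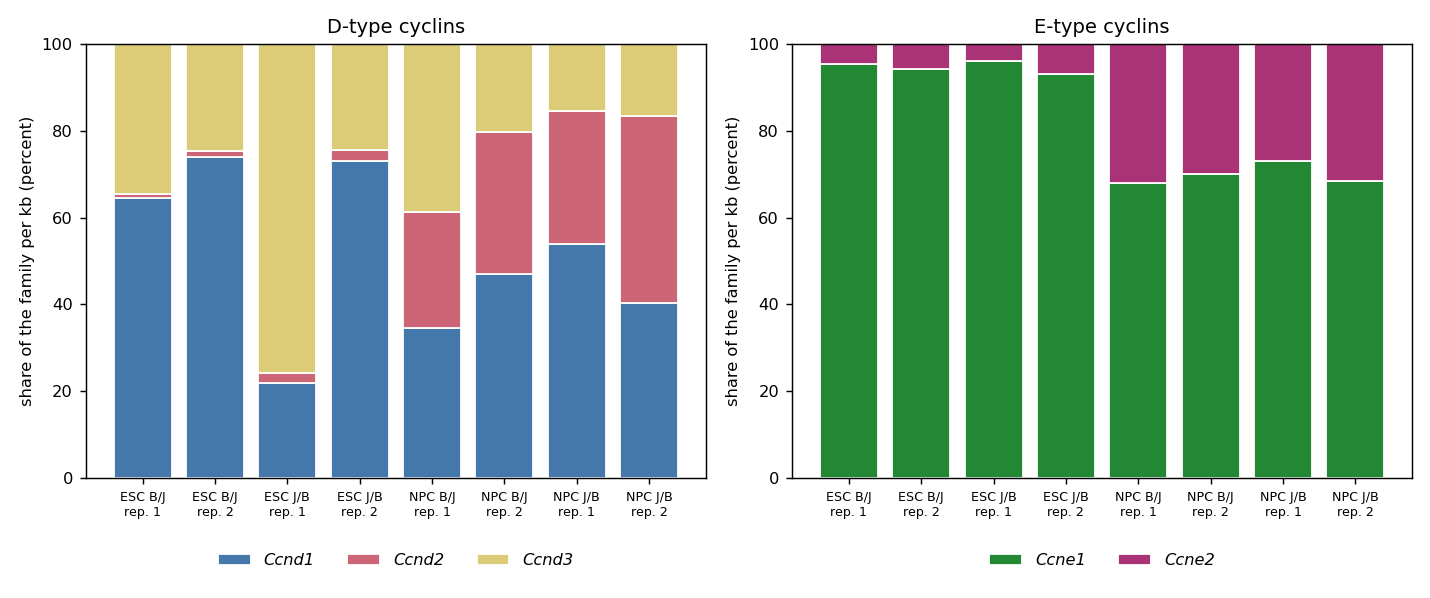
Share of each D-type cyclin (left) and each E-type cyclin (right) in the summed level of its family per kb of exon (y axis, percent), with 1 bar per library (x axis). *Ccnd2* is at most 2.36% of the D-type sum in ESCs and at least 26.5% in NPCs, and *Ccne2*, whose own level did not pass the test between the stages, makes up 3.89% to 6.80% of the E-type sum in ESCs and 27.1% to 32.0% in NPCs, where *Ccne1* is lower.

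*Ccne1*, which activates CDK2 at the entry into S phase, lies at chr7:37797404-37808264 on the minus strand. Its level was 303 and 328 CPM in B/J ESCs, 309 and 299.8 CPM in J/B ESCs, 51.6 and 38.7 CPM in B/J NPCs and 47.8 and 27.9 CPM in J/B NPCs. ESC libraries were within a narrow band (310.1 ± 12.7 CPM, SD, n = 4) well above the NPC libraries. The change between stages on the log2 scale was −2.91 ± 0.20 (adjusted p = 2.71e-05, edgeR), with −2.81 in B/J and −3.01 in J/B.

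*Ccne2*, the second E-type cyclin, lies at chr4:11190303-11204947 on the plus strand. Its level was 22.3 and 31.0 CPM in B/J ESCs, 19.4 and 33.9 CPM in J/B ESCs, 37.6 and 25.8 CPM in B/J NPCs and 27.5 and 19.9 CPM in J/B NPCs. The stages overlapped, and the difference of 0.04 ± 0.25 on the log2 scale did not pass the test (adjusted p = 0.896, edgeR). Replicate 2 was higher than replicate 1 in both ESC groups and lower in both NPC groups. Per kb of exon, *Ccne1* made up 93.2% to 96.1% of the E-type sum in ESCs and 68.0% to 72.9% in NPCs, and the sum itself was 87.6 to 96.1 CPM per kb in ESCs and 11.2 to 20.9 CPM per kb in NPCs. In the order of levels per kb, *Ccne1* stood first of the 10 genes in ESCs and sixth in NPCs, where *Ccnd1*, *Ccnd2* and *Cdkn1b* led at 33.5 ± 15.3, 24.5 ± 8.35 and 21.4 ± 5.61 CPM per kb (SD, n = 4), so that the SD of *Ccnd1* covers the means of the other two, and the means of *Ccnd2* and *Cdkn1b* lie within 1 SD of each other. With the longest transcript as the length *Ccnd3* moved up to second place at both stages.

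Among the CIP/KIP inhibitors, the 2 genes moved in opposite directions. *Cdkn1a*, a direct target of p53, lies at chr17:29309936-29319701 on the plus strand. Its level was 192 and 149.6 CPM in B/J ESCs, 126 and 178 CPM in J/B ESCs, 69.1 and 74.3 CPM in B/J NPCs and 104 and 98.7 CPM in J/B NPCs. The NPC libraries were all below the ESC libraries on this scale but overlapped with them on library totals. Between the stages the log2 fold change was −0.92 ± 0.15 (adjusted p = 0.00116, edgeR), and −0.30 without a call under scaling to *Gapdh*, *Gusb* and *Tbp* (adjusted p = 0.202, edgeR). In J/B alone the change was −0.58 and missed the threshold (adjusted p = 0.0518, edgeR), and there it turned to 0.14 under the same scaling.

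*Cdkn1b*, whose protein accompanies cell cycle exit in many lineages, lies at chr6:134897364-134902476 on the plus strand. Its level was 23.7 and 41.6 CPM in B/J ESCs, 15.6 and 38.1 CPM in J/B ESCs, 85.9 and 124 CPM in B/J NPCs and 67.4 and 112 CPM in J/B NPCs. Stages did not overlap, and replicate 2 was above replicate 1 in all 4 groups. The log2 fold change was 1.71 ± 0.34 (adjusted p = 0.00286, edgeR). Within 1 cross the call was lost without B/J ESC replicate 1 (1.34, adjusted p = 0.125), B/J NPC replicate 2 (1.40, 0.0862), J/B ESC replicate 1 (1.24, 0.0699) or J/B NPC replicate 2 (1.32, 0.104), each for its own cross in edgeR. The log2 ratio of *Cdkn1b* to *Cdkn1a* counts was −3.02 to −1.85 in ESCs and −0.63 to 0.74 in NPCs, and that of *Cdkn1b* to *Ccne1* was −4.31 to −2.97 in ESCs and 0.50 to 2.01 in NPCs.

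Among the INK4 inhibitors *Cdkn2b* and *Cdkn2c* rose and *Cdkn2a* did not pass the test. Per kb of exon, *Cdkn2b* and *Cdkn2c* were the lowest of the 10 genes at both stages, at 0.454 ± 0.165 and 0.248 ± 0.042 CPM per kb in ESCs and 2.30 ± 0.55 and 1.19 ± 0.45 CPM per kb in NPCs (SD, n = 4). *Cdkn2a* lies at chr4:89192708-89212890 on the minus strand, and *Cdkn2b* follows 10.3 kb away at chr4:89223204-89229276 on the same strand. *Cdkn2a* encodes both an INK4 inhibitor and, from an upstream first exon, the ARF protein that acts on MDM2, and counts by symbol cannot separate them. Its level was 10.2 and 7.78 CPM in B/J ESCs, 8.80 and 10.9 CPM in J/B ESCs, 8.46 and 7.05 CPM in B/J NPCs and 7.75 and 7.24 CPM in J/B NPCs. The stages overlapped and the log2 fold change was −0.30 ± 0.23 (adjusted p = 0.269, edgeR), with the sign turned under library totals (0.17) and under scaling to *Gapdh*, *Gusb* and *Tbp* (0.32).

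*Cdkn2b*, known as a target of TGF-β signalling, had 18 to 42 counts per library in ESCs and 149 to 254 in NPCs. Its level was 0.998 and 0.770 CPM in B/J ESCs, 1.39 and 1.79 CPM in J/B ESCs, 6.58 and 4.76 CPM in B/J NPCs and 5.53 and 8.20 CPM in J/B NPCs. The exact Poisson 95% interval of the highest ESC library was 1.29 to 2.42 CPM and that of the lowest NPC library 4.02 to 5.58 CPM, intervals that cover counting error only. NPCs differed from ESCs on the log2 scale by 2.39 ± 0.33 (adjusted p = 4.41e-04, edgeR), and all NPC libraries lay above all ESC libraries.

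*Cdkn2c*, which is expressed in neural progenitors and other cycling precursors, lies at chr4:109517957-109524386 on the minus strand and had 28 to 46 counts per library in ESCs and 183 to 361 in NPCs. Its level was 1.48 and 1.97 CPM in B/J ESCs, 1.49 and 1.36 CPM in J/B ESCs, 5.44 and 5.84 CPM in B/J NPCs and 7.39 and 11.7 CPM in J/B NPCs. All NPC libraries were above all ESC libraries, and both J/B NPC libraries were above both B/J NPC libraries, a difference that did not pass the test (0.76 ± 0.41, adjusted p = 0.770, edgeR). The log2 fold change between the stages was 2.22 ± 0.31 (adjusted p = 4.24e-04, edgeR).

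Annotated start sites of these genes were then read, with no read assigned to a start. RefSeq promoter windows (table of build GRCm38.p6, matched exactly to GRCm39) were found for 7 of the 10 genes, with 11 start sites, and *Ccnd1*, *Ccnd2* and *Ccne2* had no entry. The 250 bases before each start were searched on both strands, with overlapping matches counted, for the letters of 5 motifs. For these counts the windows were not cut at exons. Annotated exons covered all 250 bases of each *Cdkn2c* window, 209 of 1 *Ccnd3* window and 158 of the *Ccne1* window. The E2F site was searched as TTTCCCGC, TTTCGCGC, TTTGCCGC or TTTGGCGC. The GC box was searched as GGGCGG and the CCAAT box by its own letters. For the TATA box the letters were TATAAA. The E box was searched as CACGTG, and no motif contains another, though matches may overlap in part. The E2F letters were in 1 of 11 windows (1.87% of all 32536 windows of that length), the GC box in 7 of 11 (33.0%), the CCAAT box in 2 of 11 (33.8%), and the TATA and E box letters in 0 of 11 (12.3% and 6.04%). Shown are *Cdkn1b*, the inhibitor with the largest rise in CPM among the 10, and the neighbours *Cdkn2a*, with both of its starts, and *Cdkn2b*, cut to the bases outside annotated exons, with the E2F, GC box and CCAAT box letters in capitals:
Cdkn1b, chr6:134897114-134897363, plus strand: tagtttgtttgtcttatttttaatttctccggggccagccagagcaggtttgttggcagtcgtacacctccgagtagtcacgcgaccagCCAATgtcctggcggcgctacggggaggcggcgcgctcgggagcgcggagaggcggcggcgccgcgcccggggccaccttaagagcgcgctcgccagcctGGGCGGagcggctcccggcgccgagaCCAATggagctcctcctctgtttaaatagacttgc
Cdkn2a, start within the gene, chr4:89200430-89200679, minus strand: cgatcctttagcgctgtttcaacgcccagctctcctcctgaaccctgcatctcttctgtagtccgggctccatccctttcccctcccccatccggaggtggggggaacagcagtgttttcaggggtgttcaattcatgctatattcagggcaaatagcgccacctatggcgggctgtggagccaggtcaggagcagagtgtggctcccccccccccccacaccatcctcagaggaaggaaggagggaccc
Cdkn2a, upstream start, chr4:89212891-89213106, minus strand: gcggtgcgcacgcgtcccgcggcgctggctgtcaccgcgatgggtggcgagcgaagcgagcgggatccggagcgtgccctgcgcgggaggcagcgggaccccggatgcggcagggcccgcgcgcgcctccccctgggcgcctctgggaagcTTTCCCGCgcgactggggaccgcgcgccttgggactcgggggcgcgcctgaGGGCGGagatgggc
Cdkn2b, chr4:89229277-89229519, minus strand: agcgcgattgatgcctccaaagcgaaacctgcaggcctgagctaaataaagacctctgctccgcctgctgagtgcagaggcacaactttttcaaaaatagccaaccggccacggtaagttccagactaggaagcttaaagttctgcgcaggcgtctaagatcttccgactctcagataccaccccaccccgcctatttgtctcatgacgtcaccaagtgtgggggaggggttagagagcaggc
The *Cdkn1b* window held 1 GC box and 2 CCAAT boxes. The 2 *Cdkn2a* starts lie 12427 bases apart, and the one within the gene is intronic; its window held 7 CpG and none of the capitalised letters, whereas the upstream window held 35 CpG, 1 E2F match and 1 GC box in 216 bases. The *Cdkn2b* window had 53.5% G and C with 11 CpG and none of these letters. A match is a description of letters, and the absence of one says only that they are not in this window.

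The same stage comparison was made within each cross, where each arm holds 2 libraries. In B/J, 6 of 10 genes were called (55.8% of all genes tested), 4 higher (*Ccnd2*, *Cdkn1b*, *Cdkn2b* and *Cdkn2c*; 30.1% of all genes) and 2 lower (*Ccne1* and *Cdkn1a*; 25.6%). In J/B, 6 of 10 were called (54.5%), 4 higher (the same genes; 29.1%) and 2 lower (*Ccne1* and *Ccnd3*; 25.3%). *Ccnd1* differed by −1.48 in B/J (adjusted p = 0.0858) and by −0.01 in J/B (adjusted p = 0.987, both edgeR), with the sign in J/B turning under several scalings. Several of these calls rested on 1 library or on the scaling. In J/B, *Ccnd3* lost its call without J/B ESC replicate 1 (−0.72, adjusted p = 0.0884), without J/B NPC replicate 2 (−1.35, adjusted p = 0.0988), with library totals (−1.02, adjusted p = 0.0568) and with the reference genes (−0.74, adjusted p = 0.107), and *Cdkn1a* gained one without J/B ESC replicate 1 (−0.81, adjusted p = 0.0269), all in edgeR. *Cdkn1a* in J/B also passed in DESeq2 (−0.57, adjusted p = 0.0467), as did *Ccnd1* in B/J (−1.47, adjusted p = 0.0295). In B/J, *Cdkn1a* lost its call with the reference genes (−0.73, adjusted p = 0.0541, edgeR), and *Cdkn2c* lost its call without B/J ESC replicate 1 (1.52, adjusted p = 0.0728, edgeR). *Ccnd1* and *Ccnd3* passed in B/J without J/B ESC replicate 1 (−1.48 and −0.89, adjusted p = 0.0195 and 0.0189, edgeR) or replicate 2, libraries that are in neither arm of that contrast. The test of the difference between the crosses called 0 of the 10 genes (0% of all genes tested, where 573 had an unadjusted p below 0.05), and for *Ccnd1* gave 1.47 ± 0.91 on the log2 scale.

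**Figure D3:**
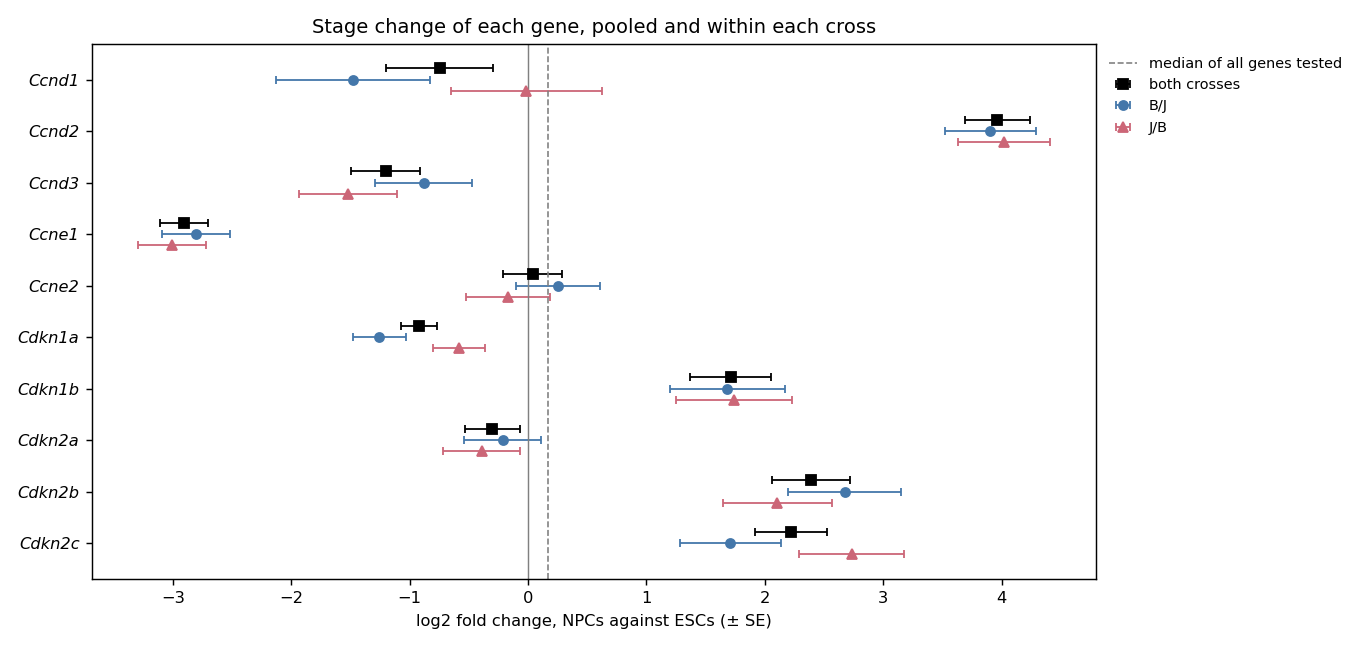
Log2 fold change of each gene between NPCs and ESCs (x axis, ± SE), pooled over both crosses (squares) and within B/J (circles) and J/B (triangles); the dashed line is the median of all genes tested, 0.17. *Ccnd2* and *Ccne1* lie at the extremes in both crosses, and *Ccnd1* has the widest error bars.

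Between the crosses at 1 stage, J/B against B/J, edgeR called 0 of the 10 genes in ESCs (0% of all genes, 346 at an unadjusted p below 0.05) and 0 of 10 in NPCs (0.0061% of all genes, 1050 at an unadjusted p below 0.05). DESeq2 and limma-voom also called 0 of the 10 in these comparisons, while DESeq2 called 11 genes for the difference of stage changes, 10 in ESCs and 70 in NPCs over the whole table. At an unadjusted p below 0.05, 0 of the 10 passed in edgeR's test as described, and 0 to 3 passed in these comparisons under the alternatives, the 3 being for the difference of stage changes without J/B ESC replicate 2. The largest differences in NPCs were 0.76 ± 0.41 for *Cdkn2c* and 0.70 ± 0.34 for *Ccnd2*, both higher in J/B. With a replicate term for each stage, chosen after seeing the data, edgeR called 0 genes in ESCs and 4 in NPCs over the whole table. That fit called 0 of the 10. At an unadjusted p below 0.05 it had 874 genes in ESCs and 3062 in NPCs, with 1 and 2 of the 10 among them.

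The other genes of the pathway were read from lists of kinases, pocket proteins, E2F factors and regulators, beside 31.9% of all genes tested called lower and 37.5% called higher. Of 7 genes for CDK4, CDK6 and CDK2 and their activators 6 fell and 0 rose (median −1.07), with *Cdc25a*, the phosphatase that activates CDK2, at −1.36 (adjusted p = 1.78e-04, edgeR). Of the retinoblastoma family, the targets of these kinases, *Rb1* rose by 2.20 and *Rbl2* by 1.40, while *Rbl1* stood at 0.34 (adjusted p = 0.0761, edgeR). *Rb1* was 7.64 to 14.9 CPM in ESCs and 33.0 to 67.4 CPM in NPCs. Of 10 E2F and DP factors 6 fell, 1 rose and 3 did not pass (median −0.85), with *E2f4*, mainly a repressor with pocket proteins, at −1.79 and *E2f6*, a pocket-independent repressor, at 0.51. All 5 genes of the S, G2 and M cyclins and *Cdk1* fell on the TMM scale, and 3 of 5 under the reference genes (median −1.16, *Ccnb1*, the mitotic cyclin, −1.94), as did 8 of 8 proliferation markers, and 6 of 8 under library totals or the reference genes (median −1.65, *Mcm2*, a subunit of the replicative helicase, −2.20).

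Another pair of inhibitors, outside the 10, was listed for comparison. *Cdkn1c*, the imprinted member of the CIP/KIP family that encodes p57, was 10.9 to 47.0 CPM in ESCs and 449 to 1089 CPM in NPCs, a log2 change of 4.68 ± 0.54 (adjusted p = 1.80e-04, edgeR). *Cdkn2d*, the remaining INK4 gene, was 12.1 to 19.4 CPM in ESCs and 16.4 to 18.2 CPM in NPCs, a difference of 0.26 (adjusted p = 0.284, edgeR).

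Of 12 genes of p53 and its targets, to which *Cdkn1a* belongs by function, 10 fell, beside 31.9% of all genes tested, and 2 did not pass (median −1.06), and *Trp53* itself fell most, by 2.60 on the log2 scale, from 560.0 to 669 CPM in ESCs to 83.8 to 116 CPM in NPCs. Of 10 genes for the turnover of cyclins and inhibitors, 6 fell and 2 rose (median −0.50): *Cks1b*, a cofactor in the degradation of p27, was lowest at −1.28 and *Fbxo4*, an F-box protein, highest at 2.04. *Fbxo4* had only 9 to 27 counts per library in ESCs. Of 11 upstream regulators 6 fell and 2 rose (median −0.58), from *Klf4*, a pluripotency factor that acts on *Cdkn1a*, at −3.65 to *Smad3*, a transducer of TGF-β signals, at 1.71. Library totals and the 3 reference genes changed the counts of several of these lists, with 3 of the 7 kinase genes called lower in place of 6, for instance, and 2 of the upstream regulators in place of 6, while the lower calls among all 16399 genes went from 5233 to 3422 and 2824. Under the reference genes alone 4 of the p53 list were called lower in place of 10, and *Cdkn2d* was called higher under both scalings. The medians stand beside 0.17 for all genes tested.

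**Figure D4:**
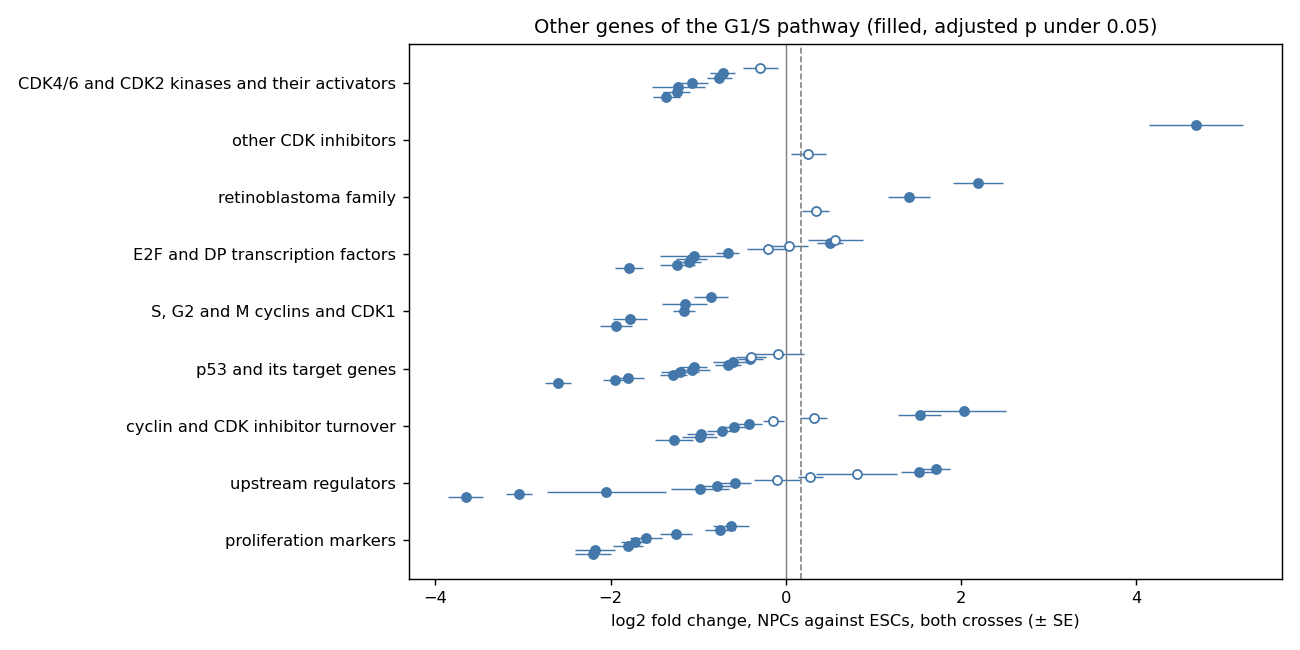
Log2 fold change between NPCs and ESCs over both crosses (x axis, ± SE) of the other pathway genes, by list (y axis); filled points passed an adjusted p of 0.05, open points did not, and the dashed line is the median of all genes, 0.17. Genes of the S, G2 and M cyclin and proliferation lists all lie below 0 on the TMM scale, and *Cdkn1c* lies at 4.68.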

How the data were processed

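Polyadenylated RNA of 8 samples was sequenced in pairs of reads (TruSeq Stranded mRNA or NEBNext Ultra II kit, HiSeq4000 or NovaSeq6000; kit and instrument per sample were not stated). The authors mapped reads with TopHat2 to mm39 masked at JF1 SNPs and deposited raw read counts per gene. HTSeq, DESeq2 and edgeR also appear in the submitters' processing notes. The sources do not say whether counting used the strand. How reads on bases shared with an antisense neighbour were counted is therefore not known. Exons of *Ccnd1*, *Ccnd2*, *Ccnd3*, *Ccne1* and *Ccne2* share 2315, 750, 369, 70 and 852 bases with a counted gene on the opposite strand (GENCODE vM39 exons).

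The 5 summary entries of each deposited count file were left out of library sizes; reads on no feature were 5.76% to 10.9% of each library and ambiguous reads at most 0.554%. Counts were tested in R 4.3.3 with edgeR 4.0.16, after filterByExpr at a minimum count of 10 and TMM scaling. The quasi-likelihood test took 4 groups, with Benjamini-Hochberg over all genes tested and a threshold of 0.05. The test was checked on simulated counts in which few genes changed, so that check does not cover the scaling between stages. DESeq2 1.42.0 and limma 3.58.1 (voom) were alternatives, with RLE factors, no low-count filter, library totals, the 3 reference genes *Gapdh*, *Gusb* and *Tbp* as scale, a replicate block and each library left out. Levels per kb used the union of exons in GENCODE vM39. Replicates of a group differed beyond sampling noise in counts (chi-square per degree of freedom 55.9 to 84.3). Named genes were the 10 members and, of each pathway list, the genes with the largest called rise and fall at a mean of 1 CPM or more. Lists of 3 or fewer genes were named whole. The markers *Col1a1*, *Nes*, *Pax6*, *Stmn2*, *Pecam1*, *Cdh5* and *Hba-a1*, and *Mycn* and *Myc*, were named after their values were seen. The 10 genes and the lists were chosen with earlier results of these data known.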

Additional observations from a re-analysis of the deposited data

Results flagged for a closer look

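The level of *Ccnd1* in J/B ESC replicate 1 was 76.8 CPM, against 318 to 365 CPM in the other 3 ESC libraries, and stood apart from them by Dixon's ratio (0.839 against a critical value of 0.829). Of the 20 sets of 4 libraries examined (10 genes in each stage) this was the 1 that passed, and chance alone gives about 1 in 20.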

How the results depend on the processing

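*Ccnd2*, *Ccne1*, *Cdkn1b*, *Cdkn2b* and *Cdkn2c* kept their direction and call over both crosses under each of the 16 alternatives, including a replicate term for each stage, chosen after seeing the data. Scaling to *Gapdh*, *Gusb* and *Tbp* left 1 gene called lower over both crosses, 1 in B/J and 1 in J/B, and library totals left 1 in J/B. Of all 16399 genes, the reference genes left 2824 called lower over both crosses in place of 5233. In B/J the reference genes left 2326 in place of 4200. In J/B they left 1783 in place of 4155, and library totals left 2495 there. Leaving out each library gave 3 to 4 genes called lower over both crosses, 2 to 4 higher and 2 to 4 lower in B/J, and 1 to 2 lower in J/B; B/J higher was 2 without B/J ESC replicate 1, B/J lower was 4 without J/B ESC replicate 1 or 2, and J/B lower was 1 without J/B NPC replicate 2. Of 480 log2 fold changes recomputed, 26 turned sign, 0 of them called in the main test or after turning; the cause was not tested. *Cdkn2a* turned to 0.17, 0.26 and 0.088 (both crosses, B/J, J/B) under library totals and to 0.32, 0.29 and 0.34 under the reference genes, which turned *Cdkn1a* in J/B to 0.14. *Ccnd1* in J/B turned to 0.0071 with RLE, 0.44 with library totals, 0.64 with the reference genes, 0.0074 with DESeq2, 0.25 with limma-voom, 0.0024 with no filter, 0.27 with the replicate block, 0.26 with the stage-wise replicate block, and ran from −0.70 to 1.37 with each library left out. *Ccne2* ran from −0.14 to 0.28 over both crosses, from −0.043 to 0.51 in B/J and from −0.52 to 0.31 in J/B with each library left out, and in J/B turned to 0.30 with library totals and 0.53 with the reference genes. Replicate numbers did not pair the samples by the labels: replicate differences correlated at 0.638 between the ESC groups and 0.480 between the NPC groups, but at 0.045 to 0.091 across stages. With the replicate block, 12010 genes were called over both crosses in place of 11378, and 7 of the 10 as before; in B/J *Ccnd3* then passed (−0.85, adjusted p = 0.0285, edgeR), as it did with the stage-wise block (−0.88, 0.00784), which also called *Cdkn1a* in J/B (−0.58, 0.0470). Where 1 library remained in a group, its spread was taken from the other groups. Calls among all genes tested were then also fewer than in the main test, in the cross that lost the library. The part of that drop in the calls lost among the 10 genes was not tested. Low counts limit *Cdkn2b* and *Cdkn2c* in ESCs.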
